A study of Mus musculus with 2 samples.

Results

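Osteopontin, the secreted protein encoded by Spp1, and 5 genes of its cell-surface receptors, Cd44, Itgav, Itgb3, Itgb5 and Itgb1, were followed through the cell classes of mouse kidney cortex. They are 6 of the 31053 genes in the count files and were taken by symbol. The set was chosen by the UMI sums of Spp1 in both libraries across cell classes, known from earlier results, and the receptors were added by function. The levels below are therefore descriptions of the 2 libraries and no test was made of them. Kidney cortex of 12-week-old mice was dissociated with collagenase and other enzymes, and single cells were captured in droplets and sequenced from the 3′ end, with each transcript counted by a unique molecular identifier (UMI). One library came from mice that express I-PpoI, an endonuclease that cuts DNA at its recognition sites, in podocytes, which wrap the glomerular capillaries. The other came from wild-type mice. The promoter or Cre line behind the transgene, and the number of mice in each library, are not given in the sources used here.

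Osteopontin is an acidic, heavily phosphorylated glycoprotein of mineralized matrix and of body fluids. In the kidney it is made by tubular epithelium, above all in the distal nephron, passes into urine where it limits crystal growth, and is known to be made in larger amounts by injured tubules and by activated macrophages. It binds integrins through an Arg-Gly-Asp motif, and it also binds the hyaluronan receptor CD44. Itgav encodes the integrin αv chain, which pairs with β3 (Itgb3), β5 (Itgb5) and β1 (Itgb1). The β1 chain also pairs with many other α chains and so takes part in most attachment to matrix.

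The coding sequence around the Arg-Gly-Asp motif is shown because it is the stretch that the αv integrins read. The capitals mark the Arg, Gly and Asp codons. For Spp1 the bases continue past the motif through the codons for the short stretch that thrombin cleavage exposes and that α4 and α9 integrins bind. Fn1 (fibronectin), Thbs1 (thrombospondin 1) and Vtn (vitronectin) encode other ligands with the motif, and their levels are given further on. Sequences are from the GENCODE release 21 mouse transcripts on GRCm38.
Spp1: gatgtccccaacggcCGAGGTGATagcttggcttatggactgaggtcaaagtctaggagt
Fn1: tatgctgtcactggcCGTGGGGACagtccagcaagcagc
Thbs1: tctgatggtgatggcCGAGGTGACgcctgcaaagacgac
Vtn: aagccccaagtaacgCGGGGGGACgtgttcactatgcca
The Spp1 stretch lies in exon 7 of 8, at chr5:104439466-104439525 on the plus strand. The codons searched were CGN, AGA or AGG, then GGN, then GAT or GAC, in frame on the coding strand. Of 21523 mouse coding sequences, 1 per gene, 1560 (7.25%) held such a run, so these letters alone do not mark an integrin ligand. The search of Tnc, which encodes tenascin C, found 0 runs in its annotated coding sequence.

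The β chains differ in the part that lies inside the cell, where talin and kindlin attach. The last 34 codons of each are shown with the codons of the Asn-Pro-any-Tyr motif, to which talin binds, in capitals.
Itgb3: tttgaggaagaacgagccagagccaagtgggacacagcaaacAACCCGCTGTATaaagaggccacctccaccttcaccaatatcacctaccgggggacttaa
Itgb5: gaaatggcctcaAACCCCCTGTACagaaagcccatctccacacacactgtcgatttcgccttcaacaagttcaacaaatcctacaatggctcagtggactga
Itgb1: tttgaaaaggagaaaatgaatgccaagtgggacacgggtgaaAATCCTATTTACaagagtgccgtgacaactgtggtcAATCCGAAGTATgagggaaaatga
Itgb1 held the motif at 2 places, and Itgb3 and Itgb5 held it at 1 place each. In Itgb3 and Itgb1 the same number of codons separates the first motif from the stop, and in Itgb5 the motif lies further from the stop. Of the 21523 coding sequences, 0.376% held the motif within their last 50 codons.

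The I-PpoI library gave 3918 cells with 34661553 UMIs, and the wild-type library 3083 cells with 19512845 UMIs. Median depth was 6611.5 UMIs per cell in the I-PpoI library and 3484 in the wild-type library, and the median share of mitochondrially encoded UMIs was 3.31% in I-PpoI cells and 14.3% in wild-type cells. Between the libraries 6 barcodes were shared, 3 of them among the cells kept. Cell classes were rebuilt from marker genes, with the 6 members and 30 pathway genes kept out of the clustering, which gave 14 named classes, 11 of them with at least 20 cells in each library. Their make-up differed: macrophage-like cells numbered 1560 in the I-PpoI library and 178 in the wild-type library, proximal tubule-like cells 63 and 1346, and injured proximal tubule-like cells 371 and 0 in the same order. No cluster was named as podocytes, although scoring each cell by the marker lists instead put 47 I-PpoI and 18 wild-type cells nearest to them. The podocyte gene Nphs1 gave 98 UMIs in all I-PpoI cells, against 25 in all wild-type cells. The gene list has no row for the I-PpoI transgene, so its expression was not checked. Levels are in CPM, the usual depth-scaled count, taken over all UMIs of a class, intervals are of 95% and cover counting error only, and with 1 library per group no difference has a replicate check.

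Spp1 was the member with the largest difference between the libraries. It gave 493134 UMIs in I-PpoI cells, against 13955 in wild-type cells, which is 14227 CPM against 715 CPM and a ratio of 19.9 (19.6 to 20.2). Injured proximal tubule-like cells held 50.3% of the Spp1 UMIs of the I-PpoI library, Lcn2 and Krt19 epithelium-like cells 21.6% and fibroblast-like cells 17.1%. In the wild-type library the thick ascending limb-like class held the largest share of any class, 30.2%. The largest wild-type share thus lay in a distal tubular class, and the 3 I-PpoI classes include one that is not epithelial.

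**Figure D1:**
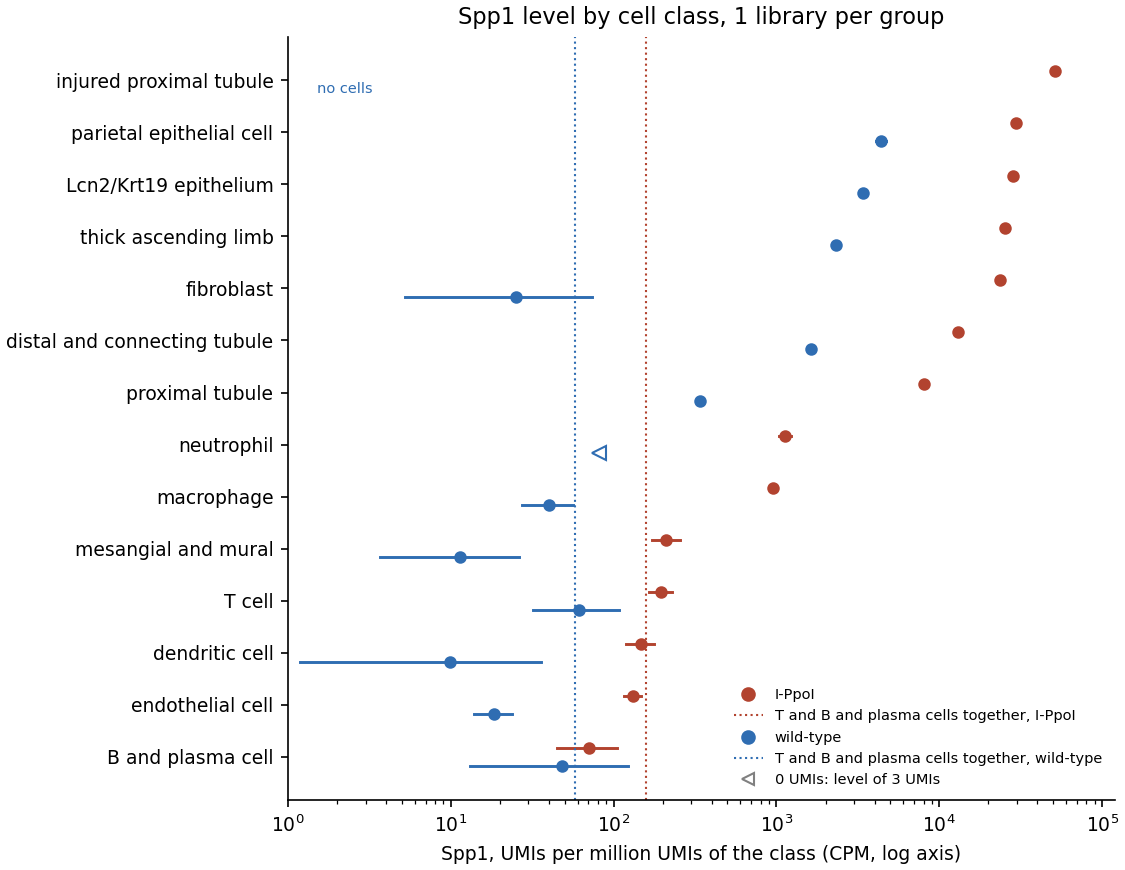
Spp1 level in each cell class (CPM, logarithmic axis) in the I-PpoI library and in the wild-type library, with 95% Poisson intervals. Dotted lines mark the level of T, B and plasma cell-like cells together in each library, and the open triangle marks the level of 3 UMIs where 0 were counted. The I-PpoI point lies to the right of the wild-type point in every class that both libraries fill, by 931-fold in fibroblast-like cells and by 1.46-fold in B and plasma cell-like cells.

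In epithelium, Spp1 was higher in the I-PpoI library in every class that both libraries filled. Injured proximal tubule-like cells, which carry Havcr1, Vcam1 and Fgg, reached 51407 CPM (51205 to 51610), the highest level of any class, and had no wild-type cells to set beside them. Their median cell had 235 Spp1 UMIs and the highest 6493, and 99.7% of them had at least 1. Lcn2 and Krt19 epithelium-like cells, whose leading genes also include the thick ascending limb genes Umod and Slc12a1, had 28219 CPM in I-PpoI and 3385 CPM in wild-type cells, a ratio of 8.34 (7.95 to 8.75). That value was 17.5 with a mitochondrial limit of 25%, where the reclustered class held 82 I-PpoI and 51 wild-type cells in place of 214 and 46, and 4.38 with doublets kept. Umod itself had 3248 CPM in I-PpoI and 259 CPM in wild-type cells of this class. At resolution 2 the class held 197 I-PpoI and 2 wild-type cells, beside a thin limb-like class of 49 and 53. The class may thus hold different tubular cells in the 2 libraries, which limits the ratio of every gene in it. The part of this mix was not tested.

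Thick ascending limb-like cells, which carry Umod and Slc12a1, had 25446 CPM of Spp1 in I-PpoI and 2311 CPM in wild-type cells, a ratio of 11.0 (10.5 to 11.5). That ratio was 7.14 with doublets kept and 18.8 with cells named by marker score, and cluster 30, with 68 wild-type cells and 0 I-PpoI cells, lies in this class. Distal convoluted and connecting tubule-like cells, whose leading genes also include the collecting duct genes Aqp2 and Fxyd4, had 12964 CPM in I-PpoI and 1639 CPM in wild-type cells, a ratio of 7.91 (7.56 to 8.27). In proximal tubule-like cells, which take back most of the filtered solutes, Spp1 had 8025 CPM in 63 I-PpoI cells and 338 CPM in 1346 wild-type cells, a ratio of 23.8 (22.6 to 24.99). In cluster 27, 10 I-PpoI cells held 1536 of the 3066 Spp1 UMIs of the class and 44 wild-type cells held 0, and without it the ratio of the class was 15.3. In the other 5 clusters the ratio was 9.60, 8.87, 14.7, 175 and 2.51 (clusters 7, 15, 23, 26 and 28), with 2 to 28 I-PpoI cells each, and with a mitochondrial limit of 25% the class gave 49.7. Parietal epithelial cell-like cells, which line Bowman's capsule, had 29422 CPM in 26 I-PpoI cells and 4400 CPM in 16 wild-type cells, a ratio of 6.69 (6.22 to 7.20).

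Among the named classes outside the epithelium the fibroblast-like class stood apart. It gave 84308 Spp1 UMIs in 274 I-PpoI cells, against 3 UMIs in 24 wild-type cells, which is 23554 CPM against 25.3 CPM and a ratio of 931 (319 to 4516). The ratio was 14.5 when doublets were kept. Spp1 was spread unevenly among the I-PpoI fibroblast-like cells: the median cell had 34.5 UMIs, the highest had 4860, and the 5% of cells with the most held 52.0% of the class total. In 152 of the 274 I-PpoI cells (55.5%) there were at least 20 Spp1 UMIs, against 0 of 24 wild-type cells.

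Macrophage-like cells gave 13129 Spp1 UMIs in the I-PpoI library, against 32 in the wild-type library. Their level was 954 CPM (938 to 970) in I-PpoI and 39.9 CPM (27.3 to 56.3) in wild-type cells, a ratio of 23.9 (16.9 to 34.98). Most of the I-PpoI Spp1 in these cells lay in cluster 14, with 9936 UMIs in 228 I-PpoI cells and 1 UMI in 9 wild-type cells. In cluster 10, which holds most of the wild-type macrophages, the level was 272 CPM in I-PpoI and 42.3 CPM in wild-type cells, a ratio of 6.42 (4.48 to 9.56). Without cluster 14 the class gave a ratio of 7.17, with doublets kept 7.97, and as a mean over cells 14.5. Classes whose Spp1 is read as background further on had ratios of similar or larger size. These were 7.11 in endothelial cell-like, 14.8 in dendritic cell-like and 18.6 in mesangial, mural and renin cell-like cells. T cell-like cells, at 3.16, and B and plasma cell-like cells, at 1.46, had smaller ones. Whether the 6.42 and 7.17 of macrophage-like cells exceed a difference in background was not tested. Only 94 of the 1560 I-PpoI macrophage-like cells (6.03%) had at least 20 Spp1 UMIs, and these held 81.0% of the class total. Unnamed cluster 22, with 9 of 9 macrophage and 6 of 6 cell cycle markers, lies outside this class. It had 5284 CPM from 4819 Spp1 UMIs in 54 I-PpoI cells, and 175 CPM from 14 UMIs in 7 wild-type cells. There 1 I-PpoI cell held 45.9% of the Spp1 UMIs.

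**Figure D2:**
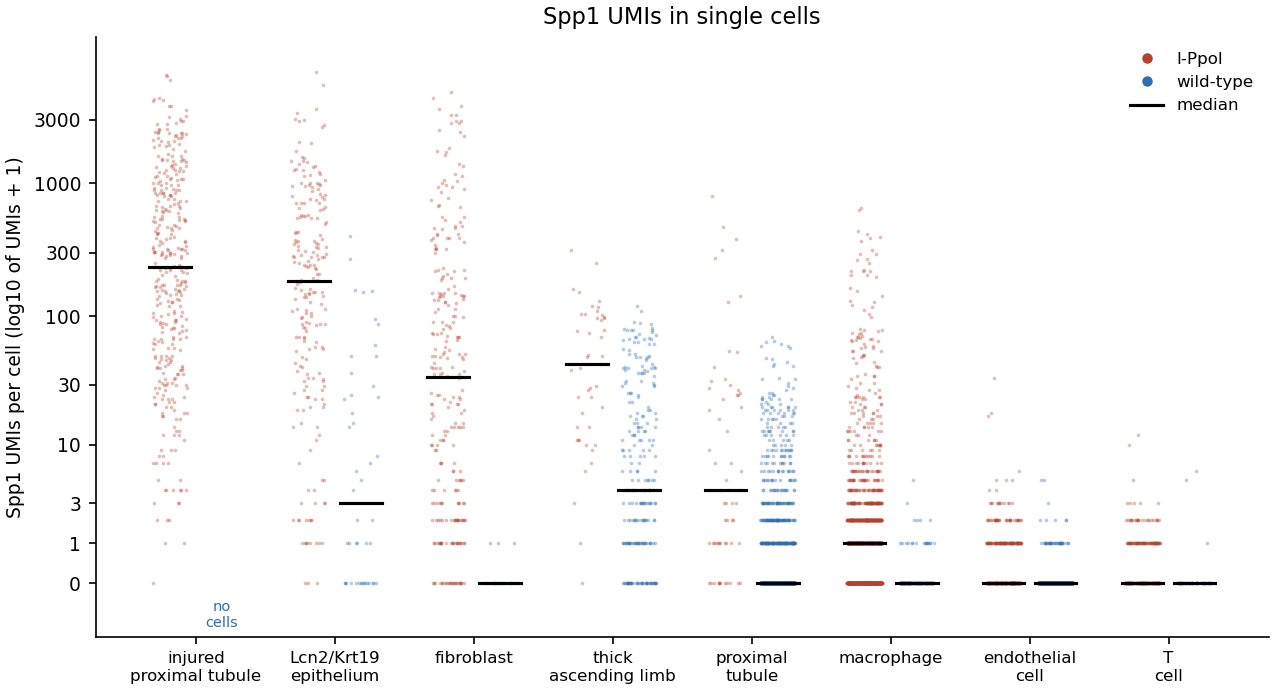
Spp1 UMIs in each cell of 8 classes (logarithmic axis), I-PpoI beside wild-type. I-PpoI fibroblast-like cells reach 4860 UMIs and I-PpoI macrophage-like cells 650, and the median macrophage-like cell has 1 UMI in the I-PpoI library and 0 in the wild-type library.

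Spp1 was also counted in the lymphoid classes. T cell-like cells had 195 CPM in I-PpoI and 61.6 CPM in wild-type cells, a ratio of 3.16 (1.76 to 6.25). Of the 12 wild-type UMIs 6 came from 1 cell, and 2 of the 60 wild-type cells held 91.7%. B and plasma cell-like cells had 70.3 CPM in I-PpoI and 48.2 CPM in wild-type cells, a ratio of 1.46 whose interval (0.502 to 5.79) holds 1. Both lymphoid classes together had 158 CPM (136 to 183) in the I-PpoI library and 57.6 CPM (32.9 to 93.5) in the wild-type library, and these were taken as the level of free RNA, from lysed cells, in the droplets. Whether some lymphoid cells make Spp1 themselves was not tested, so this level may include their own RNA.

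Endothelial cell-like cells, with 131 CPM of Spp1 in I-PpoI and 18.4 CPM in wild-type cells, lay below that level in both libraries. Dendritic cell-like cells did too, with 146 CPM in I-PpoI and 9.85 CPM in wild-type cells. Mesangial, mural and renin cell-like cells had 211 CPM in I-PpoI and 11.3 CPM in wild-type cells, and in the I-PpoI library their interval overlapped that of T cell-like cells. The Spp1 counts of these 3 classes were read as background. Fibroblast-like and macrophage-like cells exceeded the lymphoid level in the I-PpoI library. The 954 CPM of macrophage-like cells lay below the 1216 CPM of I-PpoI barcodes left out under the gene limit. Those barcodes were far shallower, with a median of 829.5 UMIs, so the CPM values are at unlike depth. In Spp1 UMIs the order was the other way, with 1.53 per barcode against a mean of 8.42 per macrophage-like cell. Of the latter, 81.0% lay in the 94 cells with at least 20 Spp1 UMIs. The 1466 macrophage-like cells with under 20 Spp1 UMIs had 203 CPM, near the 211 CPM of mesangial, mural and renin cell-like cells. Whether most I-PpoI macrophage-like cells exceed free RNA was not tested. In the wild-type library the lymphoid level rests on 16 UMIs. There macrophage-like cells lay above endothelial cell-like cells, with 39.9 CPM (27.3 to 56.3) against 18.4 CPM (13.9 to 23.8). Whether wild-type macrophage-like cells exceed free RNA was thus not settled. Neutrophil-like cells had 483 Spp1 UMIs in 181 I-PpoI cells and 0 in 12 wild-type cells. Of their 1128 CPM in the I-PpoI library, 508 CPM were left without the 1 cell that had 270 UMIs.

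Shares of cells were compared at equal depth. With each cell thinned to 1000 UMIs, 73.5% (67.7 to 78.7) of I-PpoI fibroblast-like cells had a Spp1 UMI, against 5.00% (0.127 to 24.9) of wild-type ones, where the unthinned shares were 91.2% and 12.5% in the same order. Macrophage-like cells gave 21.5% (19.5 to 23.6) in I-PpoI and 2.84% (0.929 to 6.51) in wild-type, unthinned 64.5% and 12.4%. T cell-like cells, taken as background, gave 13.04% (9.15 to 17.8) in I-PpoI and 3.45% (0.420 to 11.9) in wild-type, unthinned 40.5% and 5.00%. Of the other I-PpoI classes read as background, mesangial, mural and renin cell-like cells gave 20.7% (12.6 to 31.1) and dendritic cell-like cells 18.03% (9.36 to 30.0). The I-PpoI share of fibroblast-like cells lay above all of these, and that of macrophage-like cells overlapped them, as both wild-type shares overlapped that of T cell-like cells. Median depth before thinning was 12211 UMIs in I-PpoI and 5097.5 in wild-type fibroblast-like cells, 8037 and 4436 in macrophage-like cells, and 2877 and 3012 in T cell-like cells, in the same order.

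The Spp1-rich cells were looked at for genes of other cell types. The 152 I-PpoI fibroblast-like cells with at least 20 Spp1 UMIs had a median of 15948 UMIs per cell, and the 122 with fewer had 6287. Their collagen gene Col1a1 stood at 4479 CPM in the Spp1-rich cells and 5720 CPM in the others, and Dcn (decorin) at 583 and 2670 CPM. The 9 epithelial genes searched summed to 18 UMIs in the Spp1-rich cells, 6.94 CPM, with Cdh1 and Pax8 at 0, and to 9 UMIs, 9.14 CPM, in the others. The macrophage markers summed to 183 CPM in the Spp1-rich cells and 278 CPM in the others. The tubular genes Kap, Miox, Gpx3, Slc34a1 and Umod summed to 301 CPM in the Spp1-rich cells and 526 CPM in the others, against 41.2 CPM in I-PpoI T cell-like cells. Nearly all of this was Gpx3, which encodes a secreted glutathione peroxidase, with 296 CPM in the Spp1-rich cells and 519 CPM in the others, while Slc34a1 had 0 in both. As CPM, the tubular sum and Dcn were thus lower in the Spp1-rich cells, which were also deeper. In UMIs the tubular sums were 780 in the 152 Spp1-rich cells and 518 in the 122 others. The epithelial sums, of 18 and 9 UMIs, are too small to rank the 2 sets of cells. The part of doublets and tubular RNA in the Spp1 of these cells was not tested.

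The 94 I-PpoI macrophage-like cells with at least 20 Spp1 UMIs had a median of 14135.5 UMIs per cell, and the 1466 with fewer had 7856. The epithelial genes summed to 17.2 CPM in the Spp1-rich cells and 10.04 CPM in the others, and the 5 tubular genes to 56.9 and 92.2 CPM. Arg1 (arginase) stood at 1055 CPM in the Spp1-rich cells and 80.7 CPM in the others, Gpnmb, a lysosomal glycoprotein gene, at 138 and 20.8 CPM, Fabp5, a lipid-binding protein gene, at 907 and 242 CPM, Trem2, a lipid receptor gene, at 825 and 455 CPM, and Cd9 at 852 and 215 CPM. The complement gene C1qa stood at 4446 CPM in the Spp1-rich cells and 6297 CPM in the others. The cells were split by their Spp1 count, so these values describe the split and were not tested, and the part of depth and of doublets in it was not tested.

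**Figure D3:**
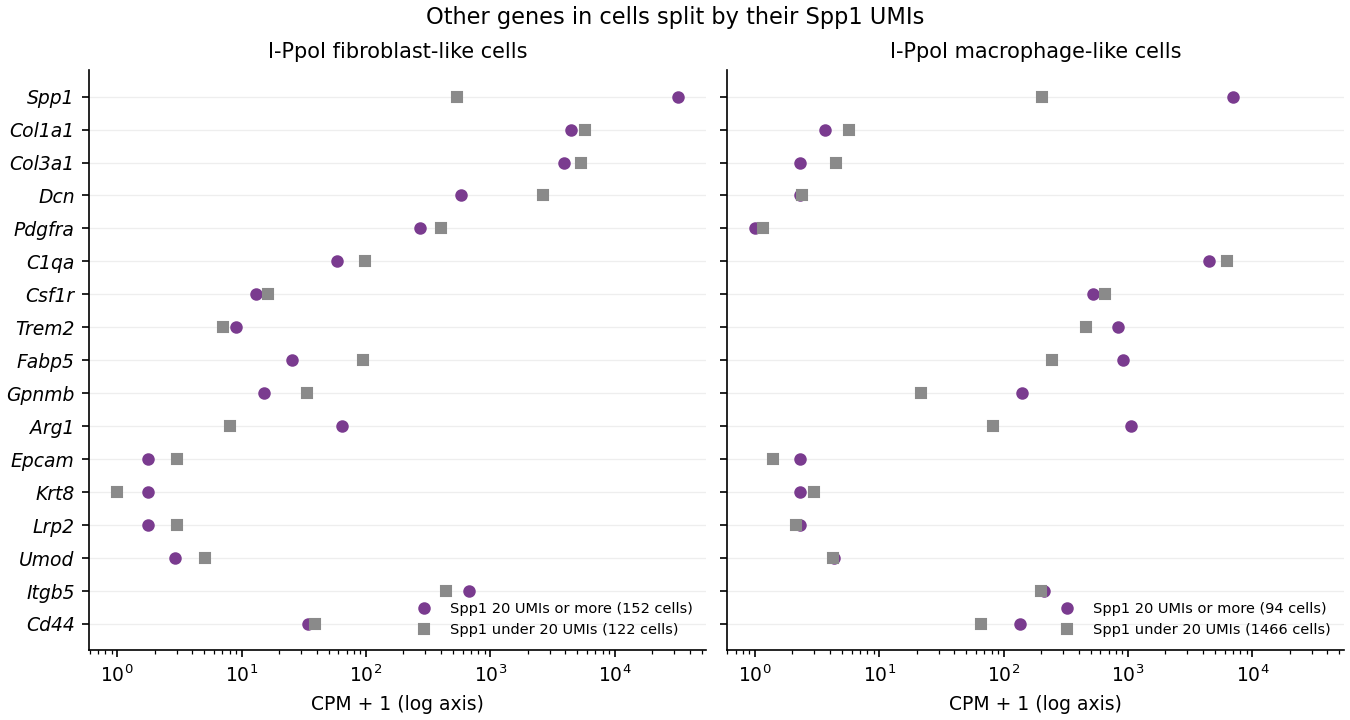
Levels (CPM with 1 added, logarithmic axis) of selected genes in I-PpoI cells with at least 20 Spp1 UMIs and in those with fewer, for fibroblast-like and macrophage-like cells. In fibroblast-like cells Dcn lies lower in the Spp1-rich cells, and in macrophage-like cells Arg1 lies higher there.

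Cd44, which binds osteopontin as well as hyaluronan and is carried by most leukocytes, gave 2110 UMIs in I-PpoI cells, 60.9 CPM, against 187 UMIs in wild-type cells, 9.58 CPM. The ratio over all cells was 6.35 (5.47 to 7.42), but within the leukocyte classes that carry most of it the ratio was not of that size. Neutrophil-like cells had the highest level, 712 CPM (634 to 797) in I-PpoI and 620 CPM (393 to 930) in wild-type cells, with overlapping intervals. Macrophage-like cells had 71.9 CPM in I-PpoI and 102 CPM in wild-type cells, a ratio of 0.704 (0.561 to 0.893). T cell-like cells had 134 CPM in I-PpoI and 216 CPM in wild-type cells, a ratio of 0.623 (0.433 to 0.911). In macrophage-like and T cell-like cells Cd44 was thus lower in the I-PpoI library, whose cells include far more leukocytes. Naming by marker score gave 41 I-PpoI and 43 wild-type natural killer cell-like cells, beside 237 and 42 T cell-like ones. The mix of lymphocytes in the T cell-like class may thus differ between the libraries. Its part in the ratios of any gene in that class was not tested.

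In epithelium Cd44 was higher in the I-PpoI library in 2 classes and near 0 in 3. Lcn2 and Krt19 epithelium-like cells had 108 Cd44 UMIs in I-PpoI, 28.6 CPM, and 1 UMI in wild-type cells, 1.98 CPM, a ratio of 14.4 with a wide interval (2.54 to 575). The ratio was 1.67 with doublets kept, so its size rests on few wild-type counts. With thinned cells 6 of 195 I-PpoI cells had a Cd44 UMI. The wild-type library had 1 UMI before thinning, so no ratio is read from that setting. Parietal epithelial cell-like cells had 75 UMIs in I-PpoI, 170 CPM, and 5 UMIs in wild-type cells, 28.4 CPM, a ratio of 6.005 (2.46 to 19.0). Injured proximal tubule-like cells had 43.3 CPM in the I-PpoI library. In proximal tubule-like cells Cd44 had 0 UMIs in 63 I-PpoI cells and 0 in 1346 wild-type cells, where a floor of 3 cells with a UMI would be 0.223%. Thick ascending limb-like cells had 0 UMIs in the I-PpoI library and 3 in the wild-type library, and distal convoluted and connecting tubule-like cells had 0 in both.

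Itgav, the αv chain, gave 3418 UMIs in I-PpoI cells, 98.6 CPM, against 1413 UMIs in wild-type cells, 72.4 CPM, a ratio of 1.36 (1.28 to 1.45). It was found in nearly all classes, with the highest levels in epithelium. Lcn2 and Krt19 epithelium-like cells had 224 CPM in I-PpoI and 77.2 CPM in wild-type cells, a ratio of 2.91 (2.11 to 4.12). That ratio lay between 1.80 and 4.90 over the alternatives. T cell-like cells had 96.8 CPM in I-PpoI and 15.4 CPM in wild-type cells, a ratio of 6.29 (2.08 to 31.1) that rests on 3 wild-type UMIs. The αv level of proximal tubule-like cells was 81.1 CPM in I-PpoI and 61.2 CPM in wild-type cells, and macrophage-like cells 50.4 and 67.3 CPM in the same order. Both of these intervals hold 1, at 0.892 to 1.90 and 0.568 to 1.01.

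Itgb3, whose β3 chain with αv forms the integrin αvβ3 that binds osteopontin in bone and in vessels, was the scarcest member. It gave 164 UMIs in I-PpoI cells, 4.73 CPM, against 14 UMIs in wild-type cells, 0.717 CPM, a ratio of 6.60 (3.82 to 12.3). Endothelial cell-like cells held 78.6% of the wild-type UMIs and had 15.7 CPM in I-PpoI and 3.55 CPM in wild-type cells, a ratio of 4.42 (2.20 to 9.64). It was 13.3 with thinned cells, but 7 of 348 I-PpoI cells had a UMI there. The wild-type class had 11 UMIs before thinning, so the size of that value is not read. Fibroblast-like cells had 64 Itgb3 UMIs in I-PpoI cells, 17.9 CPM, and 0 in wild-type ones. There 3 UMIs would be 25.3 CPM and the interval reaches 31.1 CPM, so no fold is given. The wild-type library was too shallow in these cells to show a level as low as the I-PpoI one. Macrophage-like cells had 2 UMIs in the I-PpoI library and 1 in the wild-type library.

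Within the Spp1-rich fibroblast-like cells of the I-PpoI library, Itgb3 had 61 UMIs, 23.5 CPM, against 3 UMIs, 3.05 CPM, in the fibroblast-like cells with fewer Spp1 UMIs. Itgb5 in the same cells had 674 CPM in the Spp1-rich cells and 441 CPM in the others, and Itgb1 stood at 1131 and 1133 CPM. In this split Itgb1 stood at about the same level in cells rich and poor in Spp1. Itgb3 was higher in the rich ones, set against 3 UMIs in the poor ones. The cells were split by their Spp1 count, and median depth was 15948 UMIs in the rich and 6287 in the poor ones. These values describe the split and were not tested.

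Itgb5, the β5 chain, gave 5628 UMIs in I-PpoI cells, 162 CPM, against 978 UMIs in wild-type cells, 50.1 CPM, a ratio of 3.24 (3.03 to 3.47). Fibroblast-like cells had the highest level, with 610 CPM in I-PpoI and 143 CPM in wild-type cells, a ratio of 4.26 (2.65 to 7.32). Macrophage-like cells had 199 CPM in I-PpoI and 136 CPM in wild-type cells, a ratio of 1.46 (1.21 to 1.79). Endothelial cell-like cells went the other way, with 22.3 CPM from 51 UMIs in I-PpoI and 75.5 CPM from 234 UMIs in wild-type cells, a ratio of 0.295 (0.213 to 0.400). Most endothelial cells of the libraries lay in different clusters, with 263 I-PpoI cells and 17 wild-type ones in cluster 3 and 25 I-PpoI cells and 422 wild-type ones in cluster 16. In cluster 17, which both libraries fill, Itgb5 had 13.7 CPM from 7 UMIs in I-PpoI and 5.23 CPM from 3 UMIs in wild-type cells, a ratio of 2.63 (0.599 to 15.7). Cluster 3 gave 0.695 (0.180 to 5.94) and cluster 16 gave 0.368 (0.0442 to 1.35). All of these intervals hold 1.

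Itgb1, the β1 chain shared by most matrix receptors, passed 2-fold in no class of at least 20 cells per library. It gave 15335 UMIs in I-PpoI cells, 442 CPM, against 5484 UMIs in wild-type cells, 281 CPM, a ratio of 1.57 (1.53 to 1.62). Over 13 groups of cells its ratio lay between 0.506 and 1.99. Parietal epithelial cell-like cells, which are outside that count, had 1589 CPM in I-PpoI and 829 CPM in wild-type cells, and mesangial, mural and renin cell-like cells had 1423 and 1027 CPM in the same order. Endothelial cell-like cells had 764 CPM in I-PpoI and 788 CPM in wild-type cells, a ratio of 0.969 (0.911 to 1.03). Fibroblast-like cells had 1131 CPM in I-PpoI and 708 CPM in wild-type cells, a ratio of 1.60 (1.29 to 2.01). In T cell-like cells it stood at 335 CPM in I-PpoI and 662 CPM in wild-type cells, a ratio of 0.506 (0.409 to 0.629).

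**Figure D4:**
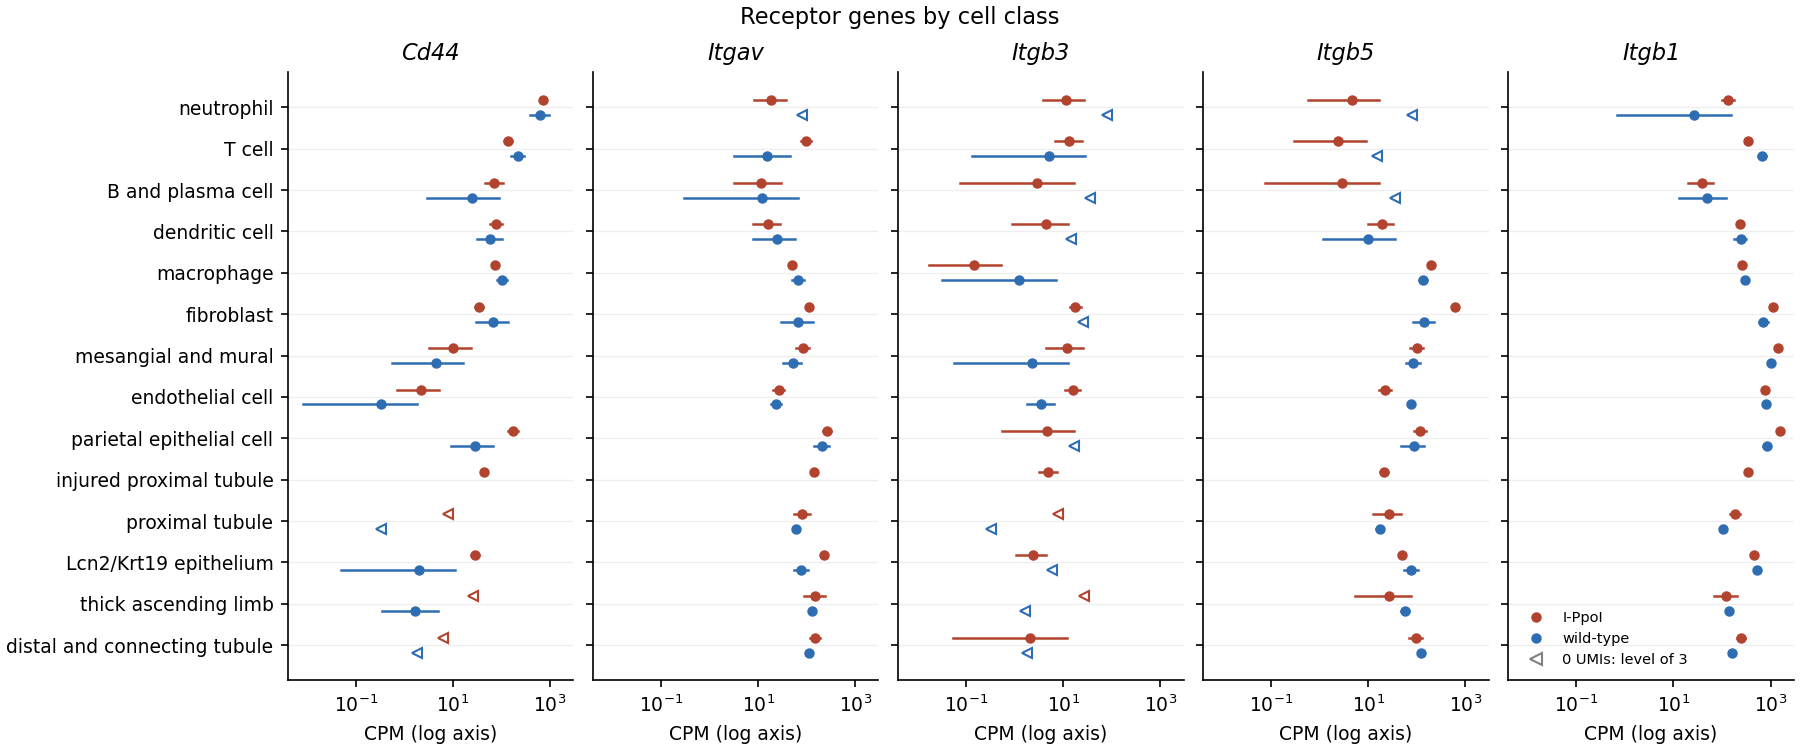
Levels of the 5 receptor genes in each cell class (CPM, logarithmic axis) in the I-PpoI library and in the wild-type library, with 95% Poisson intervals and open triangles at the level of 3 UMIs where 0 were counted. Cd44 is highest in neutrophil-like cells (712 CPM in I-PpoI, 620 CPM in wild-type) and Itgb5 in fibroblast-like cells (610 CPM in I-PpoI, 143 CPM in wild-type).

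Counted over the groups with at least 20 cells in each library and 20 UMIs of the gene, Spp1 was at least 2-fold higher in the I-PpoI library in 12 of 13 groups and lower in 0. Those 12 include T cell-like, endothelial, dendritic and mesangial, mural and renin cell-like cells, whose Spp1 was taken as free RNA or read as background. Cd44 was at least 2-fold higher in 2 of 6 groups, Itgav in 2 of 10, Itgb3 in 1 of 2 and Itgb5 in 2 of 10. Itgb5 was at least 2-fold lower in 2 of 10 groups, endothelial cell-like and thick ascending limb-like cells, and Itgb1 passed 2-fold in 0 of 13 groups. The Itgb5 ratio in thick ascending limb-like cells, 0.456, rests on 3 I-PpoI UMIs, and its interval (0.0926 to 1.37) holds 1. By class, 3 of the 5 members measured in Lcn2 and Krt19 epithelium-like cells were at least 2-fold higher (Spp1, Cd44 and Itgav), where 13.6% of all measured genes were and 13.0% were lower. In fibroblast-like cells 2 of 6 members were higher (Spp1 and Itgb5), against 11.4% of all genes (16.3% lower), in macrophage-like cells 1 of 5 (Spp1), against 9.97% (8.24% lower), and in endothelial cell-like cells 2 of 5 (Spp1 and Itgb3), against 5.88%. Itgb5 alone was at least 2-fold lower in endothelial cell-like cells, where 6.38% of genes were. In each of the other epithelial classes Spp1 alone of 4 measured members was at least 2-fold higher: in proximal tubule-like cells 10.1% of genes were higher and 6.74% lower, in distal convoluted and connecting tubule-like cells 5.13% and 9.99%, and in thick ascending limb-like cells, where Itgb5 was lower, 5.60% and 19.9%. In T cell-like cells 2 of 4 members were higher (Spp1 and Itgav), against 13.1% of genes higher and 5.82% lower. In dendritic cell-like cells it was 1 of 3 (Spp1), against 13.5% and 5.75%, and in mesangial, mural and renin cell-like cells 1 of 4 (Spp1), against 6.56% and 5.32%. In B and plasma cell-like cells Cd44 alone of 2 members was higher, against 9.75% and 49.4%. That Cd44 ratio, 2.92, rests on 2 wild-type UMIs, and its interval (0.725 to 25.5) holds 1. Of the unnamed clusters, cluster 24 had 1 of 4 members higher (Spp1), against 12.4% and 4.52%, cluster 8 had 2 of 3 (Spp1 and Itgb5), against 33.6% and 3.53%, and cluster 4 had 0 of 1, against 5.30% and 58.3%. The members were chosen with these libraries known, so nothing is read from the counts.

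**Figure D5:**
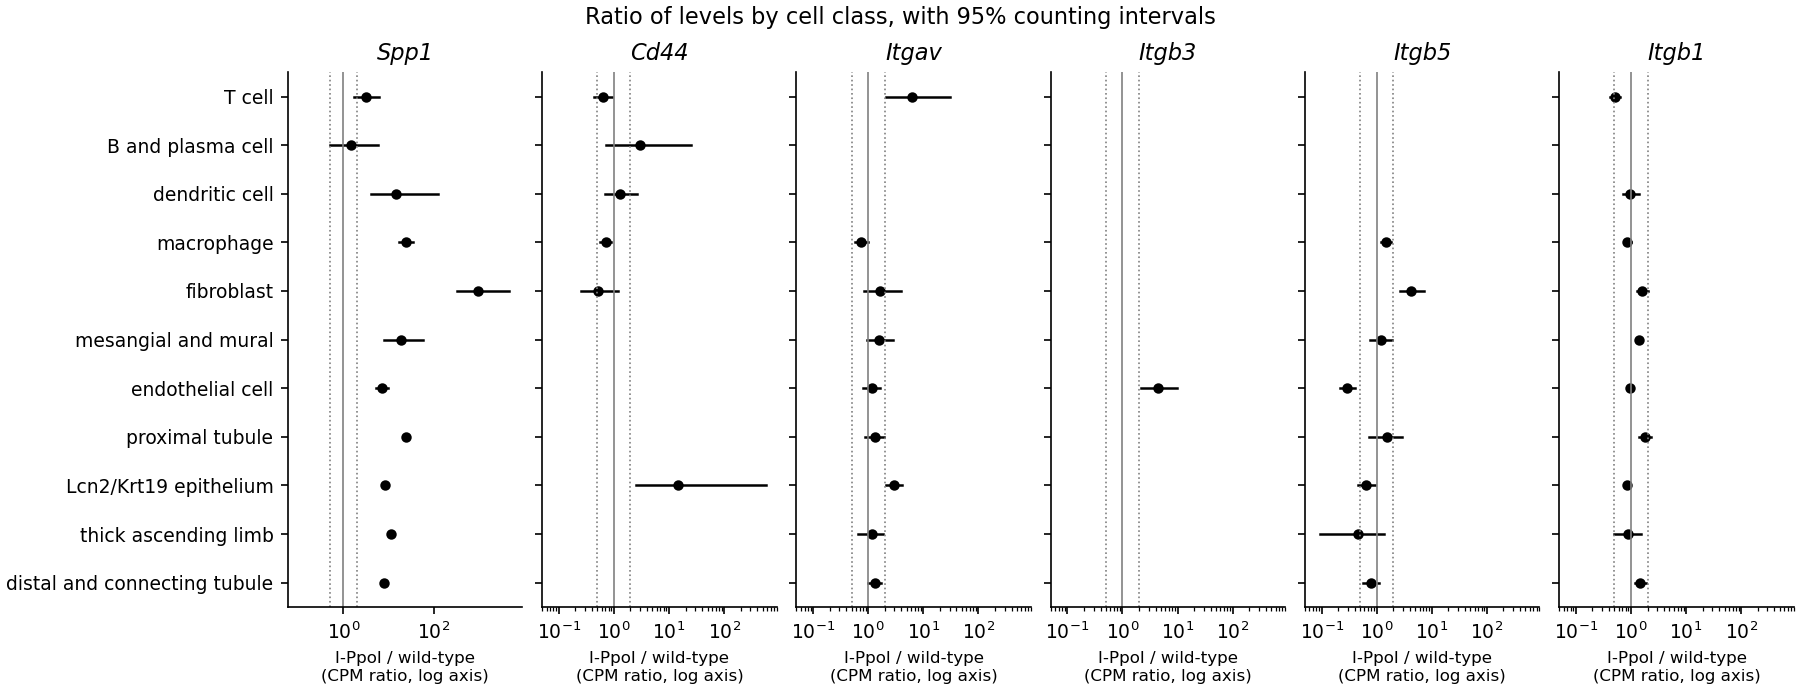
Ratio of the I-PpoI level to the wild-type level (logarithmic axis, 95% intervals) for each member in each class with at least 20 UMIs, where dotted lines mark 2-fold either way. Spp1 lies above 1 in all the classes shown, and Itgb5 lies at 4.26 in fibroblast-like cells and at 0.295 in endothelial cell-like cells.

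Other genes of the pathway came from a list of 30 (partner integrin chains, adhesion signalling, osteopontin processing, related matrix proteins, other Arg-Gly-Asp ligands and hyaluronan synthases). In fibroblast-like cells 4 of the 19 measured were at least 2-fold higher and 4 at least 2-fold lower, where 11.4% and 16.3% of all genes were, with a median log2 ratio of 0.24 against -0.16 over all genes. Thbs1 had 1632 CPM in I-PpoI and 211 CPM in wild-type fibroblast-like cells, a ratio of 7.74 (5.24 to 12.0), and Fn1 1509 and 489 CPM, a ratio of 3.09 (2.38 to 4.07). Itga8, an α chain that pairs with β1 and is another osteopontin receptor, had 46.1 CPM in I-PpoI and 126 CPM in wild-type fibroblast-like cells. Of the Arg-Gly-Asp ligands, Thbs1 and Fn1 were thus higher in this class.

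In macrophage-like cells 5 of the 15 measured pathway genes were at least 2-fold higher and 2 lower, where 9.97% and 8.24% of all genes were, with a median log2 ratio of 0.24 against -0.05 over all genes. Fn1 had 313 CPM in I-PpoI and 18.7 CPM in wild-type macrophage-like cells, a ratio of 16.7 (10.1 to 29.9). Thbs1 had 153 CPM in I-PpoI and 3.74 CPM, 3 UMIs, in wild-type cells, a ratio of 40.9 (13.99 to 199). Tgm2, a transglutaminase that cross-links osteopontin, had 34.7 CPM in I-PpoI and 8.73 CPM in wild-type macrophage-like cells. Fam20c, the kinase that phosphorylates osteopontin, had 18.3 CPM in I-PpoI and 1.25 CPM, 1 UMI, in wild-type ones. Itga9, the α9 chain that binds the stretch exposed by thrombin, had 22.2 CPM in I-PpoI and 76.0 CPM in wild-type macrophage-like cells, a ratio of 0.291 (0.221 to 0.390).

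In Lcn2 and Krt19 epithelium-like cells 4 of the 14 measured were at least 2-fold higher and 3 lower, where 13.6% of all genes were higher and 13.0% lower, with a median log2 ratio of -0.02 against -0.15 over all genes. Mmp7, a metalloproteinase that cuts osteopontin, had 186 UMIs in I-PpoI cells and 0 in wild-type ones, which against 3 UMIs as the floor is at least 8.29-fold higher. Itgb8, a β chain that pairs with αv, had 48.9 CPM in I-PpoI and 13.9 CPM in wild-type cells, a ratio of 3.53 (1.68 to 8.91). Thbs1 had 143 CPM in I-PpoI and 546 CPM in wild-type cells there, a ratio of 0.261 (0.226 to 0.303), so the same ligand gene was lower in this epithelium and higher in the classes named above. Itgb6, a β chain of epithelium that pairs with αv, had 4 UMIs in I-PpoI thick ascending limb-like cells, 34.99 CPM, and 339 UMIs in wild-type ones, 186 CPM, a ratio of 0.188. Of the 9 pathway genes measured in that class 0 were at least 2-fold higher and 3 lower, where 5.60% and 19.9% of all genes were. Itgb6 was also at least 2-fold lower in proximal tubule-like cells, but at least 2-fold higher in unnamed cluster 24.

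The genes most like each member were sought over 32 points, the cell groups of both libraries, by the Pearson correlation of log2(CPM + 10) over 11730 genes. The points of a library share its depth and free RNA, so these values are descriptions. Spp1 was most like Abhd11 (0.84), Cadm4 (0.82), Krt8 (0.81), Tubb2b (0.80) and Chka (0.79). Its correlation with Itgav was 0.69. Cd44 was most like Runx2 (0.87), Nfkbie (0.85) and Pag1 (0.82), and Itgb1 was most like Rcn2 (0.86), Pbrm1 (0.85) and Csnk1a1 (0.83). For Itgb3, where nearly all points hold few UMIs, the nearest gene was Rgs16 (0.82).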

How the data were processed

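Single-cell suspensions of kidney cortex gave 1 I-PpoI and 1 wild-type library. The authors deposited raw UMI counts for every gene in every barcode, made with Cell Ranger on an mm10 reference package, per the labels' protocols. The labels name version 3.1 and the file headers version 6.0.2. The labels also name Seurat version 3, but the deposited counts are not normalized. Barcodes held at least 500 UMIs. Of 31053 gene identifiers, 31011 (99.9%) matched GENCODE release 21.

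Cells with at least 200 genes and at most 50% mitochondrial UMIs were kept, 4091 in I-PpoI and 3217 in wild-type. Scrublet's own threshold marked 29 (0.709%) and 3 (0.0933%) barcodes, under 0.5% in one library, so barcodes with the top 4% of scores were removed in both, 173 and 134 barcodes. Free RNA was not removed. Cells were scaled to 10000, logged and clustered in scanpy 1.11.5 (2000 variable genes without the members and pathway genes, 30 components, 15 neighbours, Leiden resolution 1). The 31 clusters were named from 23 marker lists: a name needed 3 markers, each at 25 CPM or more and, after adding 10 CPM, at 4 times the median of all clusters. Rules that left 4 clusters unnamed were partly set after the data were seen. They were 4 cell cycle markers past these limits, or more markers of another class among the 10 leading genes. Red cell markers counted there from 2 up. Classes can differ from the study's.

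UMIs were summed per library and class. Exact Poisson, conditional binomial and Clopper-Pearson intervals (95%) were computed with scipy 1.17.1. Cells are not replicates, so there are no p-values. Pathway genes were named with at least 50 UMIs and a ratio of at least 2 or at most 0.5, the 6 with most UMIs per class. The 6 members, the lists and the naming rule were chosen with earlier results of these data known. The interval script was tested on simulated data. The planned ratio of Spp1 to 6 tubular genes is not reported here, and the sum of 5 of them was added after the data were seen.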

Additional observations from a re-analysis of the deposited data

Results flagged for a closer look

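Itgb5 differed between the libraries in opposite directions in fibroblast-like cells, at a ratio of I-PpoI to wild-type of 4.26, and in endothelial cell-like cells, at 0.295. The difference between the classes was not tested, since there is 1 library per group.

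Spp1 was also counted in barcodes left out of the comparisons. In barcodes under the gene limit its level was 1216 CPM in the I-PpoI library and 54.1 CPM in the wild-type library. In barcodes over the mitochondrial limit it was 1492 CPM in the I-PpoI library and 230 CPM in the wild-type library.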

How the results depend on the processing

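No paired analysis was possible because there is 1 library per group. Over other classes and settings, Spp1 kept its direction in 119 of 119 ratios but moved beyond counting error in 38. Direction was kept in 42 of 45 for Cd44 (3 moved), 83 of 89 for Itgav (8 moved), 12 of 12 for Itgb3 (1 moved), 71 of 80 for Itgb5 (6 moved, 1 reversed) and 93 of 103 for Itgb1 (14 moved). Where 1 library had 0 UMIs and the floor of 3 UMIs gave no fold beyond 1, the ratio was set to 1 in these counts. Settings that change the cells also redraw the clusters. The Spp1 ratio in Lcn2 and Krt19 epithelium-like cells, 8.34, was 17.5 with a mitochondrial limit of 25%, 4.38 with doublets kept, 11.9 at resolution 0.5, 5.42 as a mean over cells and 5.07 with thinned cells. For Itgav in the same class, 2.91, these were 2.07 at the 25% limit, 1.98 at resolution 0.5, 1.80 as a mean over cells and 4.90 with thinned cells. Cd44 in macrophage-like cells, 0.704, was 0.542 with thinned cells. Itgb1 in endothelial cell-like cells, 0.969, was 0.904 as a mean over cells and 0.891 with thinned cells. The reversed ratio is that of Itgb5 in endothelial cell-like cells, at 2.63 in cluster 17 alone. It rests on 7 and 3 UMIs and its interval holds 1, so no change of direction is read from it. The values for single clusters, for macrophage-like cells without cluster 14 and for proximal tubule-like cells without cluster 27, were chosen after the data were seen. The causes were not tested. Limits of at least 500 genes, a resolution of 2 and naming by marker score left under 20 wild-type Lcn2 and Krt19 epithelium-like cells (1, 2 and 6), so these gave no value there. Itgb3 in fibroblast-like cells had no fold in any setting, with 0 wild-type UMIs. TMM scaling moved the log2 ratios of all genes by -0.164 in Lcn2 and Krt19 epithelium-like and -0.152 in fibroblast-like cells.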
